A study of Rattus norvegicus with 10 samples.

Results

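The genes described here are those of the rat major histocompatibility complex (MHC, called RT1 in the rat) and their partners in antigen presentation. They were chosen by name: every row of the deposited table whose gene name starts with RT1-, plus B2m, Tap1, Tap2, Tapbp, Psmb8, Psmb9, Psmb10, Nlrc5, Ciita and Cd74. This gave 41 of the 32623 rows, namely 21 class I genes, 10 class II genes and 10 partners. Of the 41, 32 had a mean of at least 10 normalized counts over the 10 samples and were tested. The gene just inside that limit was RT1-DOa (mean 13.1) and the gene just outside was RT1-M2 (mean 6.67).

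RNA sequencing was done on supraoptic nuclei from males of the outbred Sprague-Dawley strain (Envigo, 250–300 g). The supraoptic nucleus is a paired hypothalamic nucleus of vasopressin and oxytocin neurons. In every rat, 1 nucleus received an adeno-associated virus that carried a short hairpin RNA directed at Opn3 (opsin 3, a light-sensitive receptor), and the opposite nucleus received a virus with a hairpin that has no target. Nuclei were taken 2 weeks later with a 1-mm punch from 100 µm sections and extracted singly, giving 5 shOpn3 and 5 shControl samples numbered 1 to 5 in each group. Both groups therefore carried a virus, a hairpin and an injection, and no uninjected nucleus was analysed here. The viral serotype, the promoter of the hairpin, the cells it entered and the side that received each virus are not given in the sources used here. A punch is bulk tissue, so more cells of a type and more RNA per cell cannot be told apart.

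MHC class I molecules are made by most nucleated cells. They consist of a heavy chain and beta-2 microglobulin (B2m), and display peptides cut by the immunoproteasome (Psmb8, Psmb9, Psmb10), pumped into the endoplasmic reticulum by the TAP transporter (Tap1, Tap2) and loaded with the help of tapasin (Tapbp). Class II molecules are alpha-beta pairs of professional antigen-presenting cells, made with the invariant chain Cd74. They display peptides from endosomes to CD4 T cells. Nlrc5 is the coactivator of class I genes and Ciita that of class II genes, and both are raised by interferon gamma. In the healthy brain, class II is largely limited to microglia and to macrophages at the brain's borders, and it rises when these cells are activated.

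Opn3 was lower in the nuclei given its hairpin. Its normalized counts were 719, 694, 841, 1007 and 261 in shControl replicates 1 to 5, and 290, 193, 159, 154 and 145 in shOpn3 replicates 1 to 5. It dropped by 1.82 in log2 terms (SE 0.320, adjusted p = 0.00226 by limma). The groups overlapped, since shControl replicate 5 lay below shOpn3 replicate 1, and Opn3 was lower in 5 of 5 same-numbered pairs. Avp, Oxt and 3 transcription factors of the nucleus, Sim1, Otp and Pou3f2, were detected in both groups. Their summed level was 54559 to 161600 normalized counts in the shControl samples and 9302 to 32163 in shOpn3, and 5 of 5 were lower.

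Libraries held between 33158341 and 39958578 reads in either group. Of all 15597 genes tested, limma called 2940 (18.8%) at an adjusted p under 0.05, with 1618 (10.4%) higher and 1322 (8.48%) lower in shOpn3. The median log2 fold change of all genes tested was -0.02. These shares are the background against which the counts below should be read. RT1 genes resemble one another closely, and how reads that fit several copies were counted is not given in the sources used here, so each single RT1 value carries that uncertainty.

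Class II transcripts were higher in shOpn3. Of 7 class II genes tested, 5 were called higher and 0 lower, where 10.4% of all genes were called higher. Their median log2 fold change was 2.08 (range 1.44 to 2.24). RT1-Da, RT1-Ba, RT1-Db1, RT1-Bb and RT1-DOb rose, while RT1-Db2 and RT1-DOa did not pass the test. Both of the latter passed the limit on the mean only through their shOpn3 samples, and RT1-DOa sets the 1.44 end of the range. Summed over the 7 genes and 3 scarce ones, class II stood at 2604 ± 719 normalized counts in the shControl samples and at 15037 ± 10958 in shOpn3 (SD, n = 5 each).

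The promoters of class II genes are classically read by a factor complex on an X box and a Y box upstream of the start site, and Ciita docks on that complex. The stretches below, from RefSeq's annotation of assembly GRCr8, are the 130 bases before the annotated start of the 5 class II genes that rose and of Cd74, read 5′ to 3′ on the gene's strand. They are shown because these genes rose together. Capitals mark the Y box letters ATTGG, on either strand (CCAAT on the opposite one), and the X box core TAGCAAC.
RT1-Da, chr20:4515285-4515414, plus strand: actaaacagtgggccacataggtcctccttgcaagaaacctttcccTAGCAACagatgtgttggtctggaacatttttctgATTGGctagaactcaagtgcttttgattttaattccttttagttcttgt
RT1-Db1, chr20:4560163-4560292, minus strand: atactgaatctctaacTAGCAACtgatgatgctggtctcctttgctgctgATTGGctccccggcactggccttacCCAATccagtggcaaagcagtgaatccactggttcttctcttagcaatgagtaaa
RT1-DOb, chr20:4627524-4627653, minus strand: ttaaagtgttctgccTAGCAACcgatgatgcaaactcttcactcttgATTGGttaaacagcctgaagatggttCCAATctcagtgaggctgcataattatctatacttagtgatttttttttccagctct
RT1-Ba, chr20:4576927-4577056, plus strand: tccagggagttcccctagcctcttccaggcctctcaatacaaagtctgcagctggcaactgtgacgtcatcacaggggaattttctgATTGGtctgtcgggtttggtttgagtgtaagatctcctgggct
RT1-Bb, chr20:4604119-4604248, minus strand: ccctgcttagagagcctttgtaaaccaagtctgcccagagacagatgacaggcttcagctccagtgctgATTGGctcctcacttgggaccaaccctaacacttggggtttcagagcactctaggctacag
Cd74, chr18:56527076-56527205, plus strand: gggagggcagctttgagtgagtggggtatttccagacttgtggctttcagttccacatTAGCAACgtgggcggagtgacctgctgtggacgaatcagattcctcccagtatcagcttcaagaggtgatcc

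Of the 41 genes, 35 matched a RefSeq promoter, and 29 of the 32 tested did. The window searched ran from 250 bases before to 50 after the start, on both strands. ATTGG was found in 7 of 7 class II promoters, against 37.5% of all 33469 promoters. TAGCAAC, a search added after the sequences had been seen, was found in RT1-Da, RT1-Db1 and RT1-DOb, thus in 3 of 7 class II promoters, and in Cd74, against 3.58% of all. In these 3 class II genes the X core lay upstream of the nearest ATTGG with 28, 27 and 25 bases between them, in the order just given. The Cd74 stretch shows no ATTGG, which its window holds outside the 130 bases printed. Class II genes descend from common ancestors, so their promoters are not independent examples, and a match describes letters, not a bound site.

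RT1-Da (ENSRNOG00000032844), the alpha chain of the RT1-D molecule that corresponds to human HLA-DR, had 1330, 1211, 742, 1541 and 1480 normalized counts in shControl replicates 1 to 5. In shOpn3 replicates 1 to 5 it had 1502, 5182, 12189, 15227 and 4385. Replicates 3 and 4 of shOpn3 stood highest, and shOpn3 replicate 1 lay inside the control range, so the groups overlapped. The means were 1261 ± 318 and 7697 ± 5756 (SD, n = 5 each), 6.10-fold apart, with a log2 fold change of 2.24 (SE 0.508, adjusted p = 0.00925 by limma).

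RT1-Db1 (ENSRNOG00000033215), the beta chain that pairs with RT1-Da, had 744, 337, 272, 603 and 693 normalized counts in the shControl samples and 550, 1421, 4255, 6386 and 1800 in shOpn3. Replicates 4 and 3 again stood highest in shOpn3, with replicate 1 inside the control range. Its log2 fold change was 2.08 (SE 0.558, adjusted p = 0.0215 by limma), and the call was lost without shControl replicate 2 or 3 or shOpn3 replicate 3 (log2 fold change 1.94, 1.86 and 1.82). RT1-Db2 (ENSRNOG00000030431), a second beta chain gene, was scarce, with 15.3, 0, 6.12, 7.49 and 14.8 normalized counts in the shControl samples and 17.3, 1.06, 78.5, 132 and 41.1 in shOpn3. Both samples of replicate 2 were at or near 0, at 0 and 1 reads. Its log2 fold change of 2.02 (SE 1.06) did not pass (limma adjusted p = 0.214), but did in a fit that pairs samples by a block on their number (limma adjusted p = 0.0268).

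RT1-Ba (ENSRNOG00000000451), the alpha chain of the RT1-B molecule that corresponds to human HLA-DQ, had 676, 702, 269, 643 and 679 normalized counts in shControl. In shOpn3 it had 644, 3043, 4917, 6775 and 1922. Replicate 3 stood apart as the lowest control and was second highest in shOpn3. The log2 fold change was 2.22 (SE 0.529, adjusted p = 0.0117 by limma).

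RT1-Bb (ENSRNOG00000032708), its beta chain, had 208, 359, 36.7, 93.6 and 159 normalized counts in the shControl samples and 154, 1445, 645, 1246 and 397 in shOpn3. Here replicate 2 was the highest sample of both groups, whereas in RT1-Ba it was the highest of the controls only. The log2 fold change was 2.14 (SE 0.657, adjusted p = 0.0392 by limma). This call was lost when shControl replicate 3, 4 or 5 or shOpn3 replicate 2, 3, 4 or 5 was left out alone (log2 fold change 1.68 to 2.28; limma adjusted p at most 0.0905).

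RT1-DOb (ENSRNOG00000000454) and RT1-DOa (ENSRNOG00000026762) encode the DO molecule, which restrains the peptide exchange catalyst DM. RT1-DOb had 31.6, 49.9, 17.3, 34.6 and 34.8 normalized counts in the shControl samples and 40.3, 138, 178, 269 and 93.5 in shOpn3 (log2 fold change 1.88, SE 0.437, adjusted p = 0.0103 by limma). It was higher in 5 of 5 pairs, although shControl replicate 2 lay above shOpn3 replicate 1. RT1-DOa had 8.16, 7.12, 3.06, 7.49 and 3.16 in shControl and 7.68, 37.2, 19.6, 30.9 and 6.16 in shOpn3. Its log2 fold change of 1.44 (SE 0.493) did not pass (limma adjusted p = 0.0616), but did with the block (limma adjusted p = 0.0288).

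Cd74 (ENSRNOG00000018735), the invariant chain that fills the class II groove until it reaches the endosome, had 3332, 2184, 1260, 2791 and 3211 normalized counts in shControl. In shOpn3 it had 3214, 10136, 25459, 33590 and 10511. Replicate 1 was alike on both sides, at a ratio of 0.965, whereas the ratio was 4.64, 20.2, 12.0 and 3.27 in pairs 2 to 5. The log2 fold change was 2.36 (SE 0.527, adjusted p = 0.00844 by limma), and it did not pass without both samples of replicate 3 (1.87; adjusted p = 0.0545).

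Ciita (ENSRNOG00000002659), the class II coactivator, had 17.3, 20.4, 7.14, 30.0 and 50.6 normalized counts in the shControl samples and 27.8, 72.2, 156, 279 and 81.2 in shOpn3. Its samples kept the order of Cd74 at the top of shOpn3, with replicate 4 above replicate 3, and shControl replicate 3 was again the lowest. Ciita was higher in 5 of 5 pairs (log2 fold change 2.11, SE 0.587, adjusted p = 0.0252 by limma). Its call was lost when shControl replicate 1, 2 or 3 or shOpn3 replicate 3 or 4 was left out alone (log2 fold change 1.72 to 2.10; limma adjusted p at most 0.0694).

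The class II calls rested on replicate 3. Without both samples of that number, limma called 0 of 7 class II genes higher (6.15% of all genes were called higher in that fit), with 5 of 7 at an unadjusted p under 0.05 and log2 fold changes from 1.21 to 1.79. The smallest limma adjusted p among the 7 was then 0.0587, and edgeR's quasi-likelihood test called 3. With all samples, edgeR called 7 of 7 higher (10.4% of all genes). RT1-Db2 and RT1-DOa, with control means of 8.73 and 5.80, passed the limit on the mean only through their shOpn3 samples, so their calls by edgeR or with the block add no support. Without replicate 4 limma called 3, and without replicate 1 it called 6, where 9.86% of all genes were called higher. Without shControl replicate 3 alone, or shOpn3 replicate 3 alone, it called 3.

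**Figure D1:**
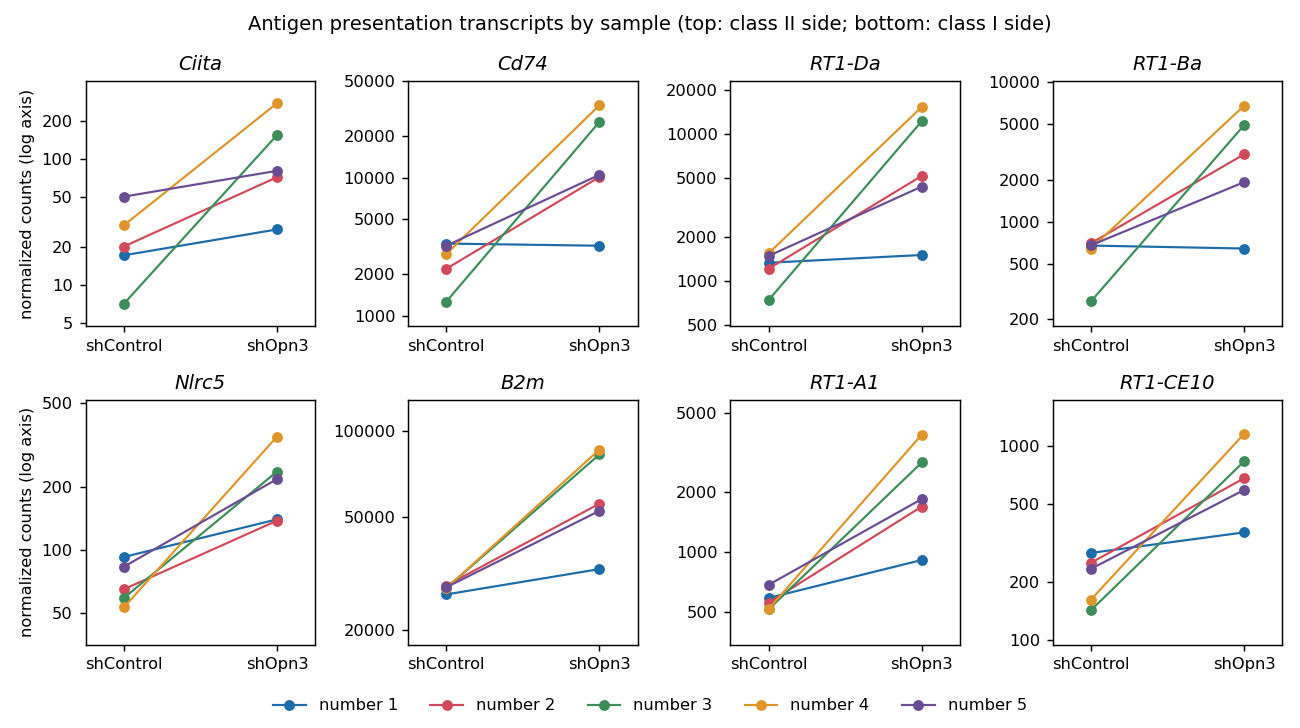
Normalized counts (log axis) of 8 genes in the 5 shControl and 5 shOpn3 samples, with lines joining samples of the same replicate number. Cd74, RT1-Da and RT1-Ba stayed near the control level in shOpn3 replicate 1 and stood highest in shOpn3 replicates 4 and 3, while all 5 shOpn3 samples of B2m, Nlrc5 and RT1-A1 lay above all 5 controls.

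Class I transcripts were also higher, by less on the log2 scale. Of 16 class I genes tested, 10 were called higher and 0 lower, where 10.4% of all genes were called higher and 8.48% lower. Their median log2 fold change was 1.36 (range 0.05 to 1.80). In 7 of the 16 every shOpn3 sample lay above every shControl sample, namely RT1-A1, RT1-CE4, RT1-CE5, RT1-CE7, RT1-CE10, RT1-CE1 and RT1-N3, where this held for 8.03% of all genes tested. In class II it held for 0 of 7. All 5 pairs were higher in 14 of 16 class I genes and in 3 of 7 class II genes, against 18.7% of all genes. RT1-Db2, among those 3, had 0 and 1 reads in pair 2 and passed the limit on the mean only through its shOpn3 samples. The difference in size between the classes was not tested.

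Class I promoters carry, besides X and Y boxes, an element for interferon regulatory factors. For the stretches below, 160 bases before the start from the same RefSeq annotation of GRCr8, capitals mark, on either strand, the letters GAANNGAAA or the core of the interferon-stimulated response element (ISRE), which is GAAA repeated after a gap of 2 bases. RT1-A1 and RT1-CE5 are class I heavy chains that rose, while RT1-A2 and RT1-M3-1, with log2 fold changes of 1.60 and 0.05, are 2 of the 6 that did not pass. Tap1 rose, and Tapbp did not pass.
RT1-A1, chr20:4907049-4907208, plus strand: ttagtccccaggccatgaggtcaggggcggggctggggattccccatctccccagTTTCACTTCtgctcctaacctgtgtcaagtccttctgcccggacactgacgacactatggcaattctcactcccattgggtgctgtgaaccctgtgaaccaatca
RT1-A2, chr20:4872711-4872870, plus strand: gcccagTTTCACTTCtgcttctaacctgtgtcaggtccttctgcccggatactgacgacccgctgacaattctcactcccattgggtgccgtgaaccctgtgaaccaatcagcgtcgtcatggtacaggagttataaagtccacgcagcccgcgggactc
RT1-CE5, chr20:3484091-3484250, minus strand: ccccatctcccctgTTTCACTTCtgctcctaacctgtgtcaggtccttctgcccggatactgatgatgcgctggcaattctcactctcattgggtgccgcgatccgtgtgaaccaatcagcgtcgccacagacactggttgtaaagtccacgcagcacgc
RT1-M3-1, chr20:1333367-1333526, minus strand: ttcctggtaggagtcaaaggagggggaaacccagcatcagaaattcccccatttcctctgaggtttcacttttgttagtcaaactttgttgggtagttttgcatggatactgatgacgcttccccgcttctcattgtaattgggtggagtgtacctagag
Tap1, chr20:4668544-4668703, minus strand: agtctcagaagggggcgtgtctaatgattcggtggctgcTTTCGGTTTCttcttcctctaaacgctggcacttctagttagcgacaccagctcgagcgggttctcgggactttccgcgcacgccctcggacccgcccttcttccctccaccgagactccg
Tapbp, chr20:4967878-4968037, minus strand: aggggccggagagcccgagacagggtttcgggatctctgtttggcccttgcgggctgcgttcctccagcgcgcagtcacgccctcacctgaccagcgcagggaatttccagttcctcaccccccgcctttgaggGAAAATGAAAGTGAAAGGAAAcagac

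The 3 heavy chain stretches from the A and CE loci hold the same letters, TTTCACTTC, which read GAANNGAAA on the opposite strand. That pattern, searched after the sequences had been seen, was found in 7 of 15 class I promoters, 0 of 7 class II promoters and 3 of 7 partner promoters, against 8.54% of all promoters. The longer ISRE core was found in 3 of 15 class I, 0 of 7 class II and 5 of 7 partner promoters, against 3.92% of all. The 5 partners were B2m, Psmb10, Psmb8, Tap1 and Tapbp, of which Psmb10 and Tapbp were not called. In Tapbp 2 such matches overlap each other, and a GAANNGAAA match overlaps the one nearer the start.

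The other motifs searched were more common. ATTGG was found in 12 of 15 class I and 4 of 7 partner promoters. TGACG, the letters of an X2 box, was found in 4 of 15 class I, 1 of 7 class II and 2 of 7 partner promoters (21.2% of all). The kappa B pattern, GGG and CC with 5 bases between them, was found in 7 of 15, 4 of 7 and 5 of 7, with 47.3% of all promoters holding it.

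RT1-A1 (ENSRNOG00000038999) and RT1-A2 (ENSRNOG00000030712) encode classical class I heavy chains, which present peptides to CD8 T cells. RT1-A1 had 589, 558, 516, 519 and 686 normalized counts in the shControl samples and 913, 1693, 2816, 3881 and 1846 in shOpn3. All shOpn3 samples lay above all controls (log2 fold change 1.80, SE 0.299, adjusted p = 0.00164 by limma). RT1-A2 had 1289, 234, 993, 1008 and 1475 in shControl and 1767, 667, 4859, 6250 and 3202 in shOpn3.

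RT1-A2 was low in both samples of replicate 2, so that shOpn3 replicate 2 lay below 4 of the 5 controls. It was nevertheless higher in 5 of 5 pairs. Its log2 fold change of 1.60 (SE 0.608) did not pass (limma adjusted p = 0.0899). It passed with the block (limma adjusted p = 0.00429), and without both samples of replicate 2 (log2 fold change 1.62; limma adjusted p = 0.0112).

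The RT1-CE genes are class I genes of the RT1-C/E region, and 6 of 6 tested rose. RT1-CE10 (ENSRNOG00000050210) had 281, 250, 143, 162 and 233 normalized counts in the shControl samples and 359, 681, 832, 1151 and 593 in shOpn3 (log2 fold change 1.70, SE 0.282, adjusted p = 0.00164 by limma). RT1-CE7 (ENSRNOG00000031090) had 345, 245, 241, 224 and 308 in shControl and 426, 621, 1093, 1319 and 760 in shOpn3 (log2 fold change 1.53). In both genes the lowest shOpn3 sample, replicate 1, lay above the highest control, which was also replicate 1.

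RT1-CE4 (ENSRNOG00000039744) had 405, 310, 277, 334 and 388 normalized counts in the shControl samples and 543, 698, 1371, 1829 and 964 in shOpn3. RT1-CE5 (ENSRNOG00000000723) had nearly the same values, 364, 335, 278, 301 and 388 in shControl and 474, 652, 1483, 1726 and 890 in shOpn3. Their log2 fold changes were 1.53 (SE 0.277, adjusted p = 0.00269 by limma) and 1.49 (SE 0.300, adjusted p = 0.00483 by limma). RT1-CE1 and RT1-CE3 had log2 fold changes of 1.42 and 1.10, and RT1-CE3 lost its call without shControl replicate 1 or 2 or shOpn3 replicate 3 or 4 (0.91 to 1.05).

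Of the nonclassical class I genes, RT1-S3 (ENSRNOG00000000777) had 1309, 1210, 1098, 1352 and 1506 normalized counts in the shControl samples and 1453, 1619, 1951, 3254 and 2184 in shOpn3. It rose by 0.64 in log2 terms (SE 0.183, adjusted p = 0.0289 by limma), with shOpn3 replicate 1 inside the control range. The call was lost without shControl replicate 2, 3 or 4 or shOpn3 replicate 3 or 5 (log2 fold change 0.58 to 0.66). RT1-N2 and RT1-N3 rose by 1.30 and 1.10. RT1-S2, with at most 92.7 normalized counts in any sample, had a log2 fold change of 1.58 that did not pass (limma adjusted p = 0.139) but did with the block (limma adjusted p = 0.00816).

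RT1-T24-4 (ENSRNOG00000042905) had 814, 1044, 832, 1003 and 778 normalized counts in the shControl samples and 819, 1345, 1170, 1749 and 1104 in shOpn3. RT1-T24-3 (ENSRNOG00000045924) had 303, 239, 232, 312 and 237 in shControl and 261, 295, 414, 751 and 452 in shOpn3. In both, shOpn3 replicate 4 was highest and replicate 1 was at the control level. Log2 fold changes of 0.43 (SE 0.171) and 0.62 (SE 0.242) did not pass (limma adjusted p = 0.100 and 0.0956) but did with the block (limma adjusted p = 0.0154 and 0.0435). RT1-T24-1, with a log2 fold change of 1.06, passed neither fit (limma adjusted p = 0.0562, and 0.0539 with the block).

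RT1-M3-1 (ENSRNOG00000000763), whose mouse counterpart H2-M3 presents peptides with an N-formylated methionine, stood apart from the other class I genes. It had 1107, 1091, 991, 997 and 1054 normalized counts in the shControl samples and 901, 1112, 1104, 1218 and 1093 in shOpn3. The means, 1048 ± 52.9 and 1086 ± 115 (SD, n = 5 each), gave a log2 fold change of 0.05 (SE 0.0869, adjusted p = 0.764 by limma). Its value is the smallest of the 16, and it turned to -0.02 without both samples of replicate 4.

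**Figure D2:**
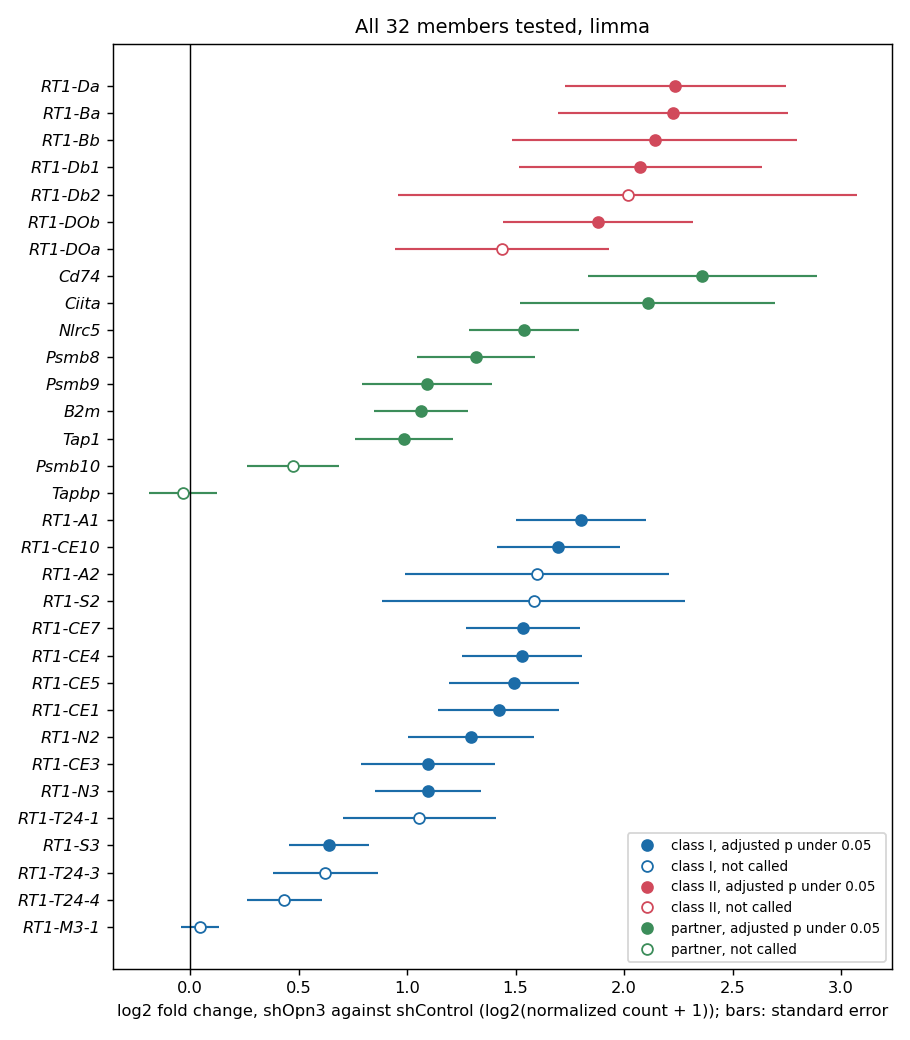
Log2 fold change with its standard error for the 32 genes tested, with filled points for a limma adjusted p under 0.05. All 7 class II genes lay between 1.44 and 2.24, though RT1-Db2 and RT1-DOa passed the limit on the mean only through their shOpn3 samples. Class I genes spread from RT1-M3-1 at 0.05 to RT1-A1 at 1.80 and partners from Tapbp at -0.03 to Cd74 at 2.36.

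Of 9 partners tested, 7 were called higher and 0 lower, where 10.4% of all genes were called higher. Their median log2 fold change was 1.09. B2m (ENSRNOG00000017123), the light chain of class I molecules, had 26733, 28734, 28108, 28105 and 28311 normalized counts in the shControl samples and 32816, 55711, 83029, 86338 and 52586 in shOpn3. The control values lay close together, at 27998 ± 752 (SD, n = 5), and every shOpn3 sample was above them. The mean in shOpn3 was 62096 ± 22441 (SD, n = 5; log2 fold change 1.07, SE 0.216, adjusted p = 0.00505 by limma).

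Nlrc5 (ENSRNOG00000048222), the class I coactivator, had 92.8, 65.1, 59.2, 53.4 and 83.3 normalized counts in the shControl samples and 140, 138, 236, 347 and 218 in shOpn3. The groups did not overlap, and replicate 4 had the lowest control and the highest shOpn3 value. The log2 fold change was 1.54 (SE 0.255, adjusted p = 0.00164 by limma).

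The 3 inducible subunits of the immunoproteasome did not share a call. Psmb8 (ENSRNOG00000000456) had 118, 68.2, 68.4, 94.6 and 129 normalized counts in the shControl samples and 169, 148, 268, 391 and 257 in shOpn3, without overlap (log2 fold change 1.32, SE 0.272, adjusted p = 0.00547 by limma). Psmb9 (ENSRNOG00000000459) had 255, 140, 105, 148 and 277 in shControl and 274, 246, 386, 600 and 441 in shOpn3 (log2 fold change 1.09, SE 0.298, adjusted p = 0.0229 by limma). Both were higher in 5 of 5 pairs. The call of Psmb9 was lost without shControl replicate 2 or 4 or shOpn3 replicate 3, 4 or 5 (log2 fold change 0.92 to 1.08; limma adjusted p at most 0.0573).

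Psmb10 (ENSRNOG00000019494) had 493, 308, 257, 253 and 459 normalized counts in the shControl samples and 425, 387, 430, 653 and 514 in shOpn3. Controls 1 and 5 lay above 3 of the 5 shOpn3 samples, and the log2 fold change of 0.48 (SE 0.211) did not pass (limma adjusted p = 0.142). Psmb8 and Psmb9 lie in the class II region beside Tap1, whereas Psmb10 lies outside the MHC.

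Tap1 (ENSRNOG00000000457), a TAP chain, had 301, 228, 194, 209 and 243 normalized counts in the shControl samples and 374, 290, 504, 789 and 480 in shOpn3. It was higher in 5 of 5 pairs, with a log2 fold change of 0.99 (SE 0.227, adjusted p = 0.00984 by limma), a call lost without both samples of replicate 3 (0.89; adjusted p = 0.0626). Tap1 and Psmb9 are read in opposite directions from starts with 456 bases between them in GRCr8. Tapbp (ENSRNOG00000029500), tapasin, had 701, 497, 519, 519 and 604 in shControl and 421, 532, 502, 795 and 568 in shOpn3. Its groups lay over each other (log2 fold change -0.03, SE 0.158, adjusted p = 0.916 by limma), and its sign changed in 4 alternative fits.

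Across the 3 groups, 22 of 32 genes tested were called higher and 0 lower, where 10.4% of all genes were called higher. Blocking on the replicate number, limma called 28 higher (15.1% of all genes), 14 in class I, 7 in class II and 7 among the partners. The 7 in class II include RT1-Db2 and RT1-DOa, which passed the limit on the mean only through their shOpn3 samples. Of the same 32 genes, the authors' deposited table listed 28 as higher at an adjusted p under 0.05. Among all genes with an adjusted p there, 11.4% were listed as higher. The block called RT1-Db2 but not RT1-T24-1, while the authors' deposited table listed RT1-T24-1 but not RT1-Db2 under that threshold. RT1-M2, not tested here, was also under it there. Its log2 fold changes were 1.96 for RT1-A1, 2.61 for RT1-Da and 2.70 for Cd74 in the authors' deposited table.

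The pairs differed widely in size, and more so in class II. The median log2 difference within pairs 1 to 5 was -0.07, 2.07, 3.96, 3.395 and 1.40 in class II. In class I it was 0.23, 0.90, 2.23, 2.42 and 1.05, and among partners 0.30, 0.96, 1.87, 2.01 and 0.89. Pair 1 thus had the smallest median and pairs 3 and 4 the largest medians in each of the 3 groups. In pair 1, 14 of 16 class I genes and 3 of 7 class II genes were higher in shOpn3, where 7365 of all 15597 genes were. The class II values include RT1-Db2 and RT1-DOa, which passed the limit on the mean only through their shOpn3 samples.

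The same samples stood at the ends for most members. Replicate 4 was the highest shOpn3 sample in 30 of 32 genes and replicate 1 the lowest in 22 of 32. Over all genes called higher, replicate 4 was highest in 45.8% and replicate 1 lowest in 35.4%. Replicate 3 was the lowest control in 20 of 32 genes, against 434 of the 1618 genes called higher and 4120 of all 15597 tested. Opn3 in shOpn3 replicate 1 was the highest of its group, at 290 normalized counts. Within pairs, however, its proportionally smallest drop was in pair 5 (261 to 145) and not in pair 1 (719 to 290). A relation of Opn3 to the MHC values was not tested.

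Microglial transcripts moved in the same samples. Of 10 microglial markers, 8 were called higher and 0 lower (Itgam 1.48, Tyrobp 1.33, P2ry12 0.88 on the log2 scale), with 0 markers at 0. Their summed level was 15906 to 19172 normalized counts in shControl, and 28547, 24057, 37210, 44434 and 31386 in shOpn3 replicates 1 to 5. The median log2 difference of the markers within pairs 1 to 5 was 0.61, 0.48, 1.44, 1.63 and 0.78. In pair 1 the markers were therefore higher while the class II median was not. The part of microglia in the MHC values was not tested.

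**Figure D3:**
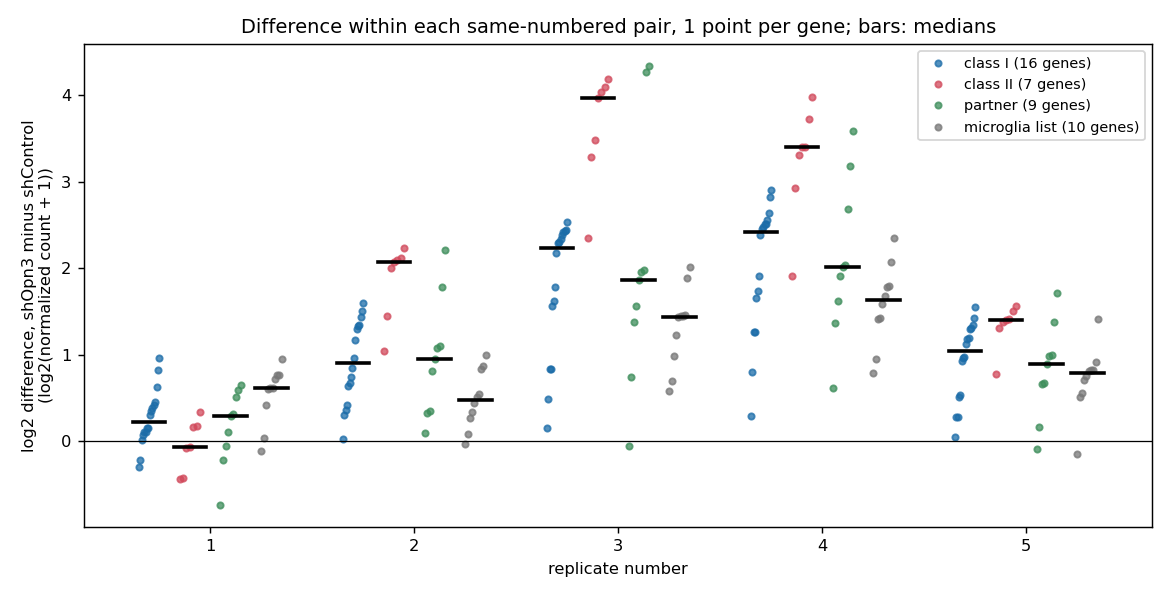
Log2 difference between the shOpn3 and shControl samples of the same replicate number, with 1 point per gene and a bar at each median. In pair 1 the class II median was -0.07 and the microglial median 0.61, while in pair 3 they were 3.96 and 1.44.

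Ratios between related RT1 genes were next followed across samples. They are ratios of normalized counts with no correction for gene length, so they are read across samples only. RT1-A2 over RT1-A1 was 2.19, 0.420, 1.92, 1.94 and 2.15 in shControl replicates 1 to 5 and 1.93, 0.394, 1.73, 1.61 and 1.73 in shOpn3. Replicate 2 was low in both groups. The ratio in same-numbered samples of the 2 groups differed by a median of 0.18 and at most 0.31 on the log2 scale. Samples with different numbers differed by a median of 0.38 and by 0.0068 to 2.47, and the largest of these differences involved replicate 2.

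RT1-Bb over RT1-Ba behaved alike with another order, 0.308, 0.512, 0.136, 0.146 and 0.234 in shControl and 0.240, 0.475, 0.131, 0.184 and 0.206 in shOpn3. Same-numbered samples differed by a median of 0.19 and at most 0.36 on the log2 scale, and different numbers by a median of 0.78. RT1-CE5 over RT1-CE4 showed no such pattern, with medians of 0.11 and 0.10. Among other ratios between members, RT1-Db1 over RT1-Da had medians of 0.1 and 0.41, but its same-numbered samples differed by up to 0.612. The medians lay closer together for RT1-Da over Cd74 (0.227 and 0.226), RT1-A1 over B2m (0.647 and 0.723) and Psmb8 over Psmb9 (0.303 and 0.335). RT1-S2, at 3.05 and 5.31 normalized counts, and RT1-Db2, at 0 and 1.06, were also low in both samples of replicate 2. The RT1 region is highly polymorphic in rats, and the RT1 haplotypes of these outbred animals were not determined.

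**Figure D4:**
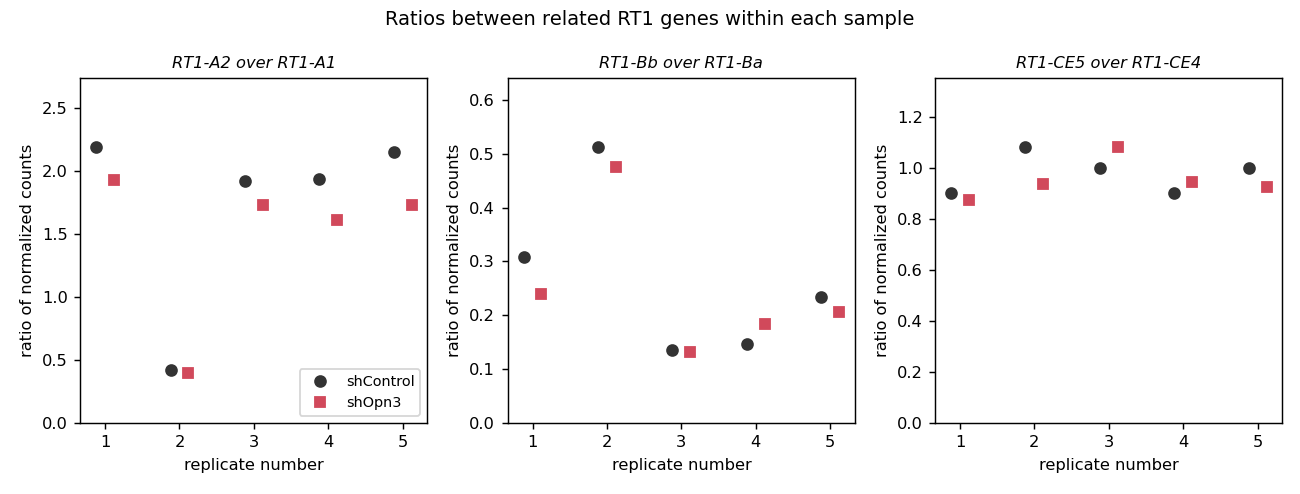
Ratio of normalized counts of RT1-A2 to RT1-A1, RT1-Bb to RT1-Ba and RT1-CE5 to RT1-CE4 in each sample, by replicate number. In replicate 2 the A2 to A1 ratio was 0.420 and 0.394 in the 2 groups, against 1.61 to 2.19 in the other samples, whereas the CE5 to CE4 ratio stayed between 0.873 and 1.08.

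Other members of the pathway were near 0 in the table. RT1-M2, RT1-M4, RT1-M5, RT1-M6-1, RT1-M6-2, RT1-Ha, RT1-DMa, RT1-DMb and Tap2 had means of 0.103 to 6.67 normalized counts. Tap2, the partner chain of Tap1, had 3 reads over all 10 samples, RT1-DMb 3 and RT1-DMa 1, although the DM molecule is needed to load class II. For each of these 3 genes the table held a second row, under another name, whose description names the same product, with 5, 4 and 1 reads. Such doubled rows can lose reads that fit both copies, which was not tested, so these values say nothing about the level of Tap2 or of DM. A further 6 rows described as class I lay outside the naming rule, of which 4 were tested and 1, LOC100364500, was called higher (log2 fold change 1.24; limma adjusted p = 0.0136).

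The MHC interval holds many genes that do not present antigen. By RefSeq order, 36 of the 41 members lie on chromosome 20. Between the outermost of them, 27 members were tested and 18 called higher, with a median log2 fold change of 1.44. Among the 81 tested genes that lie between them, 7 were called higher and 4 lower, with a median of -0.15. Of all genes tested, 10.4% were called higher and 8.48% lower. The 7 were Ubd (2.37), Ppp1r18 (0.55), the microglial marker Aif1 (1.10), Hspa1b (1.06), the complement genes C2 (1.78) and C4b (0.90), and Gpsm3 (0.70). Ubd, with means of 7.28 and 49.7, passed the limit on the mean only through its shOpn3 samples, so its call adds no support. The 4 were the myelin gene Mog (-1.30), Prr3 (-0.21), Mrps18b (-0.46) and Slc39a7 (-0.51). These 11 are given because they were called, not by a rule set on their function.

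**Figure D5:**
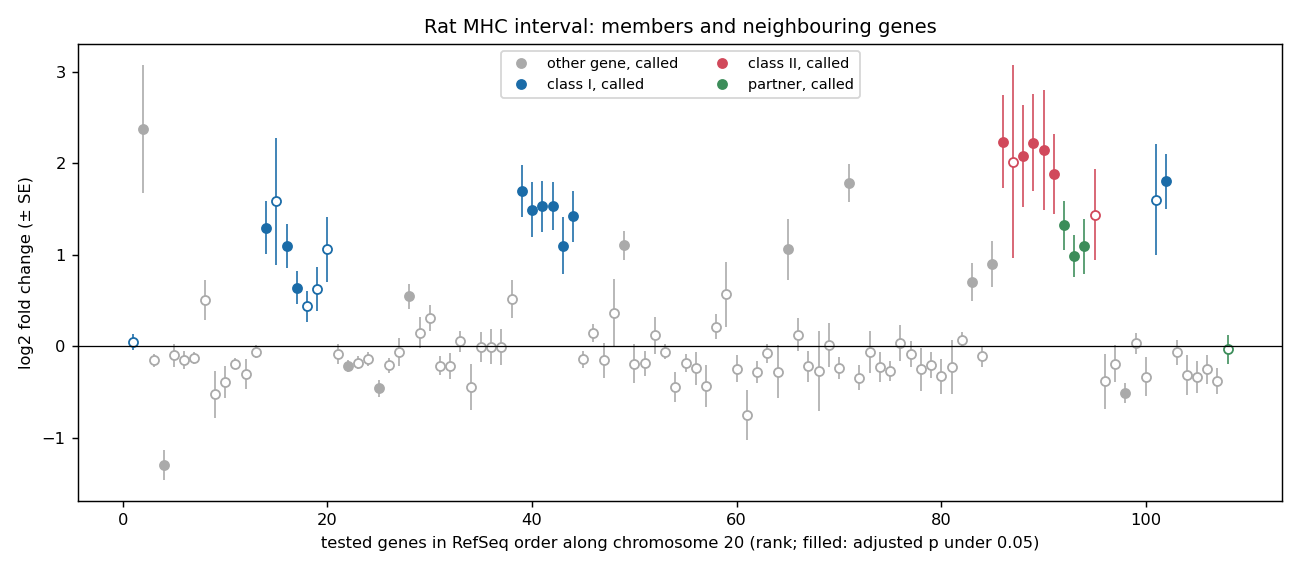
Log2 fold change with its standard error for the genes tested in the MHC interval, ranked by RefSeq order along chromosome 20, with filled points for a limma adjusted p under 0.05. Members (coloured) lay in runs, with a median of 1.44, among neighbours (grey) whose median was -0.15.

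Class I processing genes outside the members were called about as often as all genes, of which 10.4% were called higher and 8.48% lower. Of 13 further processing genes tested, 1 was called higher, the proteasome activator Psme1 (0.40), and 1 lower, Psmb6 (-0.40), the constitutive subunit that Psmb9 replaces. Their median was 0.04, and the summed level was 123620 to 165040 normalized counts in the shControl samples and 116890 to 141420 in shOpn3. Without shOpn3 replicate 3, 0 of 13 were called, without shOpn3 replicate 4 only Psme1 was, and with the block 6 were. Of 6 class I-like molecules, 1 was called higher, Cd1d1 (0.66), which presents lipids (adjusted p = 0.0393 by limma). That call was lost under quantile normalization, with no filter on low values, and without shControl replicate 1, 2, 3 or 4 or shOpn3 replicate 3, 4 or 5 (log2 fold change 0.54 to 0.71). It was lost also without both samples of replicate 1, 2, 3 or 4, and the block called 2 of 6.

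Of 10 class II processing genes, 6 were called higher and 1 lower. Ctss (0.81), the protease that trims Cd74 in the endosome, Ifi30 (1.08), a thiol reductase, and Marchf1 (0.89), a ubiquitin ligase that removes class II from the surface, were among the 6. Marchf8, a related ligase, was the 1 called lower (-0.39), and is named after its value was seen. Their summed level was 86848 to 90602 normalized counts in the shControl samples and 94162 to 133850 in shOpn3, without overlap.

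Of 14 regulators tested, 8 were called higher and 0 lower, with a median of 0.34. They included Irf8 (1.73), Irf1 (0.73), which takes part in the induction of Ciita by interferon gamma, and Nfkb1 (0.51). The subunits of the X and Y box complexes, Rfx5, Rfxank, Nfya, Nfyb and Nfyc, were not called, with log2 fold changes from -0.11 to 0.27. With the block, limma called 9 of 14, among them Nfya (log2 fold change 0.27, adjusted p = 0.0326). The count was 5 without shControl replicate 2 or 4 or shOpn3 replicate 3, and 4 without both samples of replicate 3. Rfxap was listed at 0 in each sample.

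Of 7 interferon receptor and kinase genes tested, 3 were called higher: Ifngr2 (0.67), Ifngr1 (0.66) and Jak2 (0.36). Quantile normalization and the block each gave 5, and the block added Ifnar1 and Ifnar2. The ligands Ifng and Ifnb1 had means of at most 0.973 normalized counts in either group. Among 6 co-stimulation and checkpoint genes, 4 were called higher, including Cd86 (2.10) and Cd80 (2.05), which engage CD28 on T cells, and Havcr2 (1.26). Cd86 had 126 ± 13.6 normalized counts in the shControl samples and 577 ± 239 in shOpn3 (SD, n = 5 each).

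Of 9 genes of the T and NK cells that read MHC, 6 were called higher and 0 lower, including Lag3 (2.75), an inhibitory class II receptor, Cd4 (1.95) and Cd8a (1.04). Cd4 is also made by rat microglia and macrophages. Cd3e, which defines T cells, had 18.6 ± 7.59 normalized counts in the shControl samples and 55.8 ± 30.9 in shOpn3 (SD, n = 5 each). The summed level of the 9 was 688 to 885 in shControl and 1638 to 4752 in shOpn3, with 0 genes at 0. Most of that sum was Cd4, with means of 649 and 2712. Cd8b, Klrk1 and Cd3d were not called (limma adjusted p = 0.0929, 0.108 and 0.323). With the block, limma called 8 of 9 (15.1% of all genes). The count was 3 without shOpn3 replicate 3 and 2 without both samples of replicate 3. Nkg7, among the 6, passed the limit on the mean only through its shOpn3 samples (means 9.26 and 20.4). So did Cd8b (means 7.98 and 19.2).

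Other cells that can make class II were followed by their markers. Of 7 perivascular macrophage genes, 2 were called higher, Siglec1 (1.62) and Mrc1 (0.54), and the summed level was 2161 to 2995 normalized counts in the shControl samples and 2884 to 4798 in shOpn3. Mrc1 lost its call without shControl replicate 1, 3 or 5 or shOpn3 replicate 3 or 4 (log2 fold change 0.43 to 0.51), which leaves 1 of 7. Of 6 dendritic cell genes tested, 2 were called higher, Itgax (2.64) and Xcr1 (1.65), at sums of 556 to 642 and 729 to 1140. Xcr1, with a control mean of 7.37, passed the limit on the mean only through its shOpn3 samples, so its call adds no support. Itgax, with means of 40.8 and 277, made the largest part of the difference in that sum. Clec9a (1.54), Ccr7 (1.08), Flt3 (0.30) and Zbtb46 (-0.08) were not called, and the block called 3 of 6. Of 4 B cell genes tested, limma, edgeR and DESeq2 each called 0, and 0 had an unadjusted p under 0.05 by limma. With the block, limma called 1, Jchain (log2 fold change 0.64, adjusted p = 0.0263), as did edgeR. The B cell sum was 62.3 to 111 in shControl and 70.9 to 211 in shOpn3, with Jchain highest (35.4 and 58.3). None of these markers was at 0 in each sample, and their part in the MHC values was not tested.

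The tissue differed in other ways as well. Of 7 astrocyte genes, 4 were called higher, including Gfap (1.10), Vim (0.56) and Gja1 (0.42), at sums of 206780 to 263230 and 262350 to 395050 normalized counts. The count was 2 without both samples of replicate 3, and 2 without those of replicate 4, and Gfap was lost in both (0.95 and 0.89). Of 8 oligodendrocyte genes, 8 were called lower, with a median of -1.27 and sums of 731350 to 1246200 and 249040 to 470890. Mog and Ermn had log2 fold changes of -1.30 and -1.24. Of 8 neuronal genes, 1 was called higher, Rbfox3 (0.62), and 2 lower, Uchl1 (-0.49) and Elavl4 (-0.57), at sums of 127250 to 179990 and 126220 to 217210. The balance of these calls moved with the setting: 3 were higher and 2 lower by DESeq2, 4 higher and 1 lower under quantile normalization, 4 higher and 0 lower without shOpn3 replicate 4, and 1 higher and 0 lower without shOpn3 replicate 3. Of 7 endothelial genes, limma, edgeR and DESeq2 each called 0, with 1 at an unadjusted p under 0.05 by limma, Esam (-0.24), and sums of 15854 to 19450 and 14397 to 21888. With the block, limma called 1, Slco1a4 (log2 fold change 0.17, adjusted p = 0.0442). The part of these shifts in the MHC values was not tested.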

How the data were processed

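RNA was sequenced from 10 rat supraoptic nuclei, 5 given a hairpin against Opn3 and 5 a control hairpin. The submitters' processing notes name FastQC, STAR, featureCounts and DESeq2. The genome build, the annotation release, the strand setting and the treatment of reads with several matches are not given in the sources used here. The deposited table holds a signal per gene and sample, namely counts that the authors divided by a size factor per sample. All values times that factor were whole within 0.001, so reads were recovered. Per the file headers the table also holds the authors' comparison: a log2 fold change with its standard error, a Wald score and a p-value. A DESeq2 (1.42.0) fit of the recovered reads differed from the deposited log2 fold changes by more than 1e-04 in 0 genes.

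Values were taken as log2(normalized count + 1), which understates the change of scarce genes. Genes with a mean of at least 10 were compared with limma (3.58.1, R 4.3.3; lmFit, eBayes with trend) by group alone, two-sided, with Benjamini-Hochberg adjustment over all 15597 genes and a threshold of 0.05. edgeR (4.0.16) and DESeq2 were alternatives on the reads, among 25 in all. The procedure was tested on simulated data. Per the labels' protocols nuclei were extracted singly and each rat gave a nucleus to both groups, but no label states that equal numbers mark a rat. After each group's mean was subtracted, samples of equal number correlated across genes (r 0.12 to 0.44 in 5 pairs). Unequal numbers had a median r of -0.21 and a range of -0.45 to 0.36, so the ranges overlapped. Subtracting the group means by itself pushes unequal numbers toward the opposite sign of equal ones. On this ground the pairing by number was accepted but is not proven, and limma was also run with that number as a block.

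Members and lists were chosen with earlier results of these data known. Per-sample values are given for each partner above the limit on the mean, each class II gene above it, and the 10 class I genes with the highest mean. Up to 3 called members are named from each list by smallest adjusted p, or the highest mean where none was called, and others were singled out after their values were seen. Some genes that met this rule, and 1 planned motif, are not reported here. Names, gene order and promoters came from RefSeq tables of GRCr8 (matched by symbol with Python 3.11.15 and pandas 2.3.3). Since the build of the counts is unknown, no coordinates are given for them. Gene lengths were not used, so levels are not compared between genes.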

Additional observations from a re-analysis of the deposited data

Results flagged for a closer look

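Each named member was examined in each group for a sample far from the others, by its gap to the nearest sample relative to the range of the group. Of the 54 values looked at, 1 stood out, and chance alone gives about 1 in 20, or 2.7. RT1-Ba stood at 269 normalized counts in shControl replicate 3, while the nearest control was at 643, a gap of 0.864 of the range. The same sample was the lowest control in 20 of the 32 genes tested, against 4120 of all 15597. Without it RT1-Ba kept its call.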

How the results depend on the processing

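Of 795 values that the 32 genes took under the 25 alternatives, 698 kept their direction and side of the threshold, 54 kept the direction and lost the call, 38 gained it and 5 changed sign. When samples were left out, some values of uncalled genes changed sign. RT1-M3-1 ranged from -0.015 (without replicate 4) to 0.131 (log2), and Tapbp from -0.194 to 0.144, positive without shControl replicate 1 (0.047), shOpn3 replicate 1 (0.065) or 3 (0.0019), or replicate 1 (0.144). Cd79b ranged from -0.126 to 0.617 and Tek from -0.081 to 0.092. RT1-A1, RT1-CE1, RT1-CE4, RT1-CE5, RT1-CE7, RT1-CE10, RT1-N2, B2m, Psmb8 and Nlrc5 kept their calls in all 25.

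With both samples of a replicate number removed, a choice made after seeing the data like the edgeR fit with the block, class I calls ranged from 7 to 13, class II from 0 to 6 and partners from 3 to 7, with the lowest counts without replicate 3. With single samples left out, class I calls ranged from 8 to 12, class II from 3 to 6 and partners from 5 to 7. Over all genes, 2940 calls became 4726 with the replicate block in limma and 4777 with it in edgeR, and ranged from 1603 (without replicate 3) and 1878 (without replicate 2) to 3057 when samples were left out. The block moved no other class count by more than 1.5 times. DESeq2 called 15 class I, 6 class II and 7 partner genes, and edgeR called 12, 7 and 7. Both class II counts include RT1-DOa, and that of edgeR also RT1-Db2, whose calls add no support for the reason given above. The median log2 fold change of all genes was -0.019, -0.028 and -0.035 under the 3 scalings tried. Depth limits the scarce genes, such as RT1-DOa with 3 to 8 reads in a control sample, and the causes of the changes between fits were not tested.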
